A study of Mus musculus with 45 samples.

Results

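The 32 genes described here are targets or partners of the transcription factor ATF4 and genes of amino acid metabolism, taken by symbol from the raw count table of primary mouse embryonic fibroblasts (MEFs, connective-tissue cells cultured from embryos). They matched 33 of the table's 57010 gene identifiers, because Ddit3 has a second identifier, which had 0 counts in all 45 libraries and was left aside. By role they comprise 12 stress regulators, 3 genes for secreted proteins and a lipoprotein receptor, 5 enzymes of serine synthesis and mitochondrial one-carbon metabolism, 6 other amino acid enzymes and 6 amino acid transporters. All cells were wild type, of a strain not named in the labels, and were of 3 states: H2O2-induced (senescence induced with 200 µM hydrogen peroxide over 24 h), etoposide-induced (2 µM etoposide, a topoisomerase II inhibitor, over 24 h) and uninduced proliferating cells. Induced cells were then cultured for 5 days. In each state, 5 groups of 3 replicates were treated for 12 h: ESA (alpha-eleostearic acid, a fatty acid with conjugated double bonds) after 1 h of 2 µM ferrostatin-1 (Fer-1, a lipid radical scavenger that inhibits ferroptosis), the methyl ester of ESA (ESA-Me) after the same Fer-1 pretreatment, ESA alone, ESA-Me alone, and ethanol vehicle. The series' title names lipid senolytics that act through ferroptosis, an iron-dependent death by lipid peroxidation. The samples' labels give both compounds at 2 µg/mL, but the protocol text states 10 µg/mL of ESA and 20 µg/mL of ESA-Me. The compounds were therefore not tested against each other. No group received Fer-1 alone, and the design calls the replicates biological without naming embryos or cultures.

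ATF4 is translated preferentially when stress kinases phosphorylate the initiation factor eIF2α, in what is called the integrated stress response. With C/EBP-family partners it binds composite elements in its targets, among them genes for transporters and enzymes that supply asparagine, serine, glycine, proline and cysteine, and feedback regulators such as TRIB3 and the eIF2α phosphatase subunit encoded by Ppp1r15a. Because ATF4 is controlled largely at translation, the level of Atf4 mRNA is not a measure of ATF4 protein, which was not measured here.

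Total RNA libraries held 13.5 to 59.6 megareads of counts, with ranges that overlapped between states. Expression is given as CPM (counts per megaread), and changes as log2 fold changes with standard errors from edgeR's quasi-likelihood test, in which a gene was called at a Benjamini-Hochberg adjusted p under 0.05 over all 16194 genes tested. All 32 genes passed the filter on low counts. Libraries with the same replicate number within a state shared their deviations from the group means (correlations across genes 0.26 to 0.82 in 18 comparisons, against at most 0.06 between different numbers), and the fits within a state are paired by that number. Deviations within a group sum to 0, so positive correlations for equal numbers lower those for different numbers. The contrast between equal and different numbers is thus partly built in. The 5 libraries of 1 number in 1 state are here called a replicate set, a name for the shared number only, since no label says what they share. Without the pairing none of the 32 genes was called in any comparison within a state or between responses, so the counts of calls in those comparisons rest on it. The senescence comparisons carry no pairing. Their spread was estimated from all 45 libraries as if independent, with 30 residual degrees of freedom, although libraries of a replicate set deviated together. The p-values of the senescence comparisons may therefore be too small. All 6 fibroblast markers were at or above 252 CPM in every library, and of the markers of other cell types Epcam, Cdh1 and Krt8 (3 of 5 epithelial), Pecam1 and Cdh5 (2 of 4 endothelial), Myod1, Myog and Myh3 (3 of 4 skeletal muscle), Gfap (1 of 4 neural) and 0 of 4 macrophage markers were under 1 CPM in every library. Over all libraries the summed levels were 2.29 to 38.2 CPM for the epithelial list, 0.263 to 2.42 CPM for the endothelial, 8.71 to 85.4 CPM for the muscle, 59.3 to 113.5 CPM for the neural and 3.85 to 47.8 CPM for the macrophage list. Krt19 and Des, at 28.9 and 59.1 CPM in uninduced vehicle cells, made up most of the epithelial and muscle sums there.

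The promoters were inspected for the letters of the CCAAT/enhancer-binding protein and ATF composite element, because several members share it. RefSeq windows on GRCm38.p6, from 250 bases before to 50 bases after the start, were at hand for 27 of the 32 genes, as 34 windows; Eif4ebp1, Cth, Slc7a3, Slc7a5 and Slc1a5 had none. TGATGNAA was searched on both strands and was held by 8 of the 27 genes (29.6%): Jdp2, Trib3, Nupr1, Vldlr, Asns, Pycr1, Got1 and Slc1a4. Over the whole table it was held by 1304 of 32851 windows of that length (3.97%) and by 1219 of 27025 genes (4.51%). Many of the 32 were listed because they are ATF4 targets, so these shares describe the list and are no result of these libraries. The 6 with the largest absolute response to ESA in uninduced cells are printed 5′ to 3′ on the gene's strand, with the match in capitals, and Got1, Nupr1, Trib3 and Slc1a4 carry it as its reverse complement. Windows are at chr19:43524556-43524855 (minus strand), chr2:152344011-152344310 (minus), chr7:126625421-126625720 (minus), chr6:7693160-7693459 (minus), chr12:85599166-85599465 (plus) and chr11:20332664-20332963 (minus).
Got1: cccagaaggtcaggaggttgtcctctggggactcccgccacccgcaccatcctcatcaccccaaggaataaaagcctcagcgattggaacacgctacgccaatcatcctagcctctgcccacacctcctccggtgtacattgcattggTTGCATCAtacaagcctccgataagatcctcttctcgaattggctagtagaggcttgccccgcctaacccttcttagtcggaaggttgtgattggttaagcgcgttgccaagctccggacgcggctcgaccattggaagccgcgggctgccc
Trib3: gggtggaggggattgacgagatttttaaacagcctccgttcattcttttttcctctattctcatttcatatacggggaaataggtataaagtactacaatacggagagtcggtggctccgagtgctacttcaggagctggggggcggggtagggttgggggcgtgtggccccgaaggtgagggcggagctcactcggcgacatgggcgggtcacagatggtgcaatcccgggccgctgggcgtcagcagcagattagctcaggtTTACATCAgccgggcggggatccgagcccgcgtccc
Nupr1: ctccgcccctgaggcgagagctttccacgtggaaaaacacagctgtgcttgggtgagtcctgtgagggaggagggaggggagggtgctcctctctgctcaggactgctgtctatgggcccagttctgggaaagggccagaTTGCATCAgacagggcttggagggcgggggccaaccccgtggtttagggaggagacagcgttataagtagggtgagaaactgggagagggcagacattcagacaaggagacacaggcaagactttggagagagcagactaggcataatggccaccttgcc
Asns: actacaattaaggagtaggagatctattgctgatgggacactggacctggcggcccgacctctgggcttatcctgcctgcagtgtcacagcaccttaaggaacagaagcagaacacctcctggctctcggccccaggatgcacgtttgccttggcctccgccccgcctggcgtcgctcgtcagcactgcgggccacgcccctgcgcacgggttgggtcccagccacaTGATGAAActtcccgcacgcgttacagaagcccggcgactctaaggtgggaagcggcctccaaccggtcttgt
Jdp2: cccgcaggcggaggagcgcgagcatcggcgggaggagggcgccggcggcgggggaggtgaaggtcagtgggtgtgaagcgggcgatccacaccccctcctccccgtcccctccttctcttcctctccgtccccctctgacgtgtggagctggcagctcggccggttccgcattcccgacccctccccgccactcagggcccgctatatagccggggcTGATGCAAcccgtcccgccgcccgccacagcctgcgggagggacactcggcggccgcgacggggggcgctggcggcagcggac
Slc1a4: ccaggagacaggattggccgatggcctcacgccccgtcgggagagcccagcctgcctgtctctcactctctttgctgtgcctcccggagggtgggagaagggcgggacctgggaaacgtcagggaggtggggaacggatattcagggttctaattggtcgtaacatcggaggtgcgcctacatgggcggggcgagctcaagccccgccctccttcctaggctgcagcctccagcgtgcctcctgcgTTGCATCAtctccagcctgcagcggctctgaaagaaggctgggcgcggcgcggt
Of the 8 genes with the letters, 4 were called higher with ESA in uninduced cells (median log2 fold change 0.24), and of the 19 matched genes without them 9 were (median 0.29). Jdp2, which encodes a basic leucine zipper repressor, held the letters and had a log2 fold change of -0.18 ± 0.12 (adjusted p = 0.296). A match is a run of letters in this window and not a measured binding site.

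Levels per kilobase of merged exon in uninduced vehicle cells spanned a wide range. Atf5, which encodes a relative of ATF4, averaged 166 ± 16.7 CPM per kb (SD, n = 3), the transcriptional coregulator gene Nupr1 140.5 ± 16.8 and Atf4 130.4 ± 5.98. Phgdh, the gene of the first enzyme of serine synthesis, averaged 102 ± 17.6 CPM per kb and Asns, for asparagine synthetase, 83.8 ± 13.1. Among the transporters, Slc7a5, which carries large neutral amino acids, averaged 62.4 ± 14.8 CPM per kb, Slc38a2, which carries small neutral ones, 40.8 ± 1.14, Slc1a4 23.5 ± 0.796, Slc7a1 12.0 ± 1.15, Slc1a5 8.27 ± 1.49 and Slc7a3 5.73 ± 1.67. The spreads of neighbours in that order overlapped for Atf5 and Nupr1 and for Nupr1 and Atf4, and did not overlap between Slc38a2 and Slc1a4. Stc2 at 3.20 ± 0.744 CPM per kb was the lowest but for Cbs, the gene of cystathionine beta-synthase, at 0.0396 ± 0.0231. Cbs had at most 29 reads in any library, and its values are close to the counting limit.

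**Figure D1:**
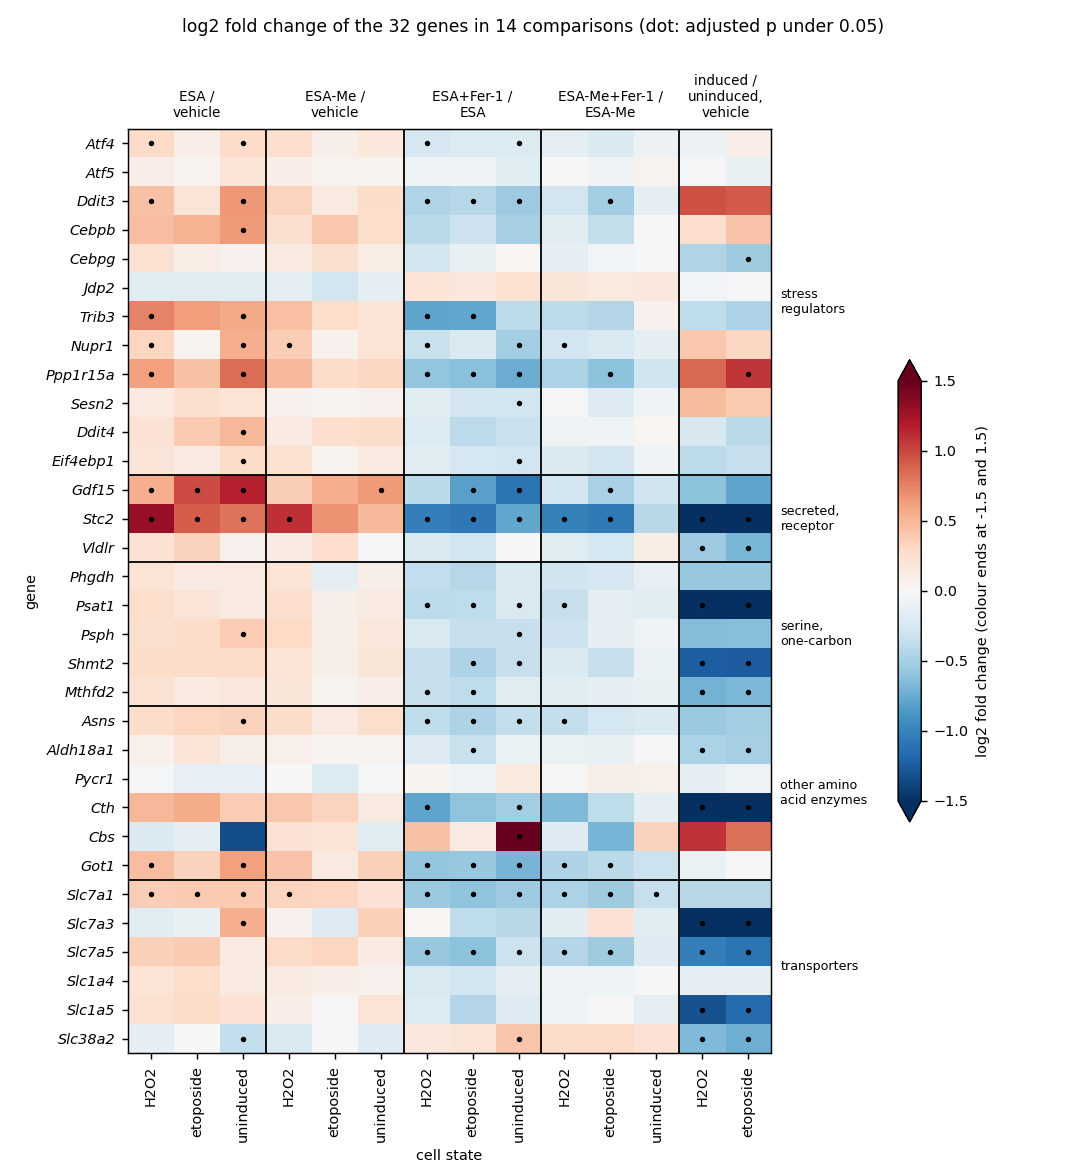
Colours give the log2 fold change of each of the 32 genes (rows, by role) in 14 comparisons (columns, by cell state), and dots mark adjusted p under 0.05. With ESA most genes are coloured as higher, with Fer-1 added to ESA most as lower, and in induced cells Psat1, Shmt2, Cth, Stc2 and several transporters stand out as lower.

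Psat1 of serine synthesis, Shmt2 and Mthfd2 of one-carbon metabolism and 4 of 6 amino acid transporter genes were lower in both kinds of senescent cells, while most stress regulators did not pass the test. After H2O2, 0 of 32 genes were called higher and 11 lower in vehicle-treated cells, against 8.92% and 8.58% of all genes (17.5% in either direction). After etoposide, 1 was called higher and 12 lower, against 9.20% and 8.54% of all genes (17.7% in either direction). Both comparisons share the uninduced vehicle libraries, so they are not independent. By role, the calls lower after H2O2 were 3 of 5 serine and one-carbon enzymes (median log2 fold change -0.71), 4 of 6 transporters (-0.84), 2 of 6 other enzymes (-0.31), 2 of 3 secreted or receptor genes (-0.62) and 0 of 12 stress regulators (-0.04), where the median over all genes was 0.03. After etoposide they were 3 of 5 (-0.67), 4 of 6 (-0.91), 2 of 6 (-0.29), 2 of 3 (-0.79) and 1 of 12 (0.04), with the same median of 0.03 over all genes. In bulk RNA, fewer cells of a type and less RNA per cell cannot be told apart. The 5 days of culture are stated for induced cells only, so induction and time in culture cannot be told apart either.

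Psat1, the gene of phosphoserine aminotransferase (ENSMUSG00000024640, chr19:15904678-15947337 on GRCm38), had 101, 67.9 and 75.6 CPM in the H2O2-induced replicates 1 to 3 and 105, 89.9 and 66.9 CPM in the etoposide-induced ones, against 276, 413 and 316 CPM in uninduced cells. No induced library reached the lowest uninduced one. The log2 fold changes were -2.04 ± 0.27 (adjusted p = 1.70e-06) after H2O2 and -1.94 ± 0.27 (adjusted p = 3.96e-06) after etoposide. Shmt2, which encodes the mitochondrial enzyme that passes a carbon unit of serine to folate, had 112, 77.8 and 71.9 CPM after H2O2 and 122, 80.5 and 58.4 CPM after etoposide, against 174, 240.5 and 202 CPM in uninduced cells. Again the groups did not overlap, and its log2 fold changes were -1.24 ± 0.28 (adjusted p = 0.00198) and -1.25 ± 0.28 (adjusted p = 0.00187). Mthfd2, for the next mitochondrial folate enzyme, changed by -0.71 ± 0.22 (adjusted p = 0.02) and -0.67 ± 0.22 (adjusted p = 0.0281). Phgdh and Psph, for the first and last steps of serine synthesis, did not pass, at -0.57 ± 0.32 (adjusted p = 0.235) and -0.65 ± 0.38 (adjusted p = 0.261) after H2O2 and -0.57 ± 0.32 (adjusted p = 0.231) and -0.64 ± 0.38 (adjusted p = 0.267) after etoposide.

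Among the transporters, Slc7a3, a carrier of cationic amino acids (ENSMUSG00000031297, chrX:101079210-101086020), had 3.02, 1.61 and 3.35 CPM after H2O2 and 2.07, 7.72 and 2.41 CPM after etoposide, against 14.6, 26.6 and 23.9 CPM in uninduced cells. Every induced library was below every uninduced one, with etoposide replicate 2 the highest of the induced libraries. Its log2 fold changes were -3.04 ± 0.54 (adjusted p = 0.000104) and -2.39 ± 0.52 (adjusted p = 0.00107). Slc1a5, a carrier of glutamine and other neutral amino acids, had 12.0, 12.2 and 17.8 CPM after H2O2 and 11.2, 20.1 and 14.7 CPM after etoposide, against 28.7, 41.1 and 33.7 CPM in uninduced cells. Here too the groups did not overlap (-1.31 ± 0.26, adjusted p = 0.000533, and -1.16 ± 0.26, adjusted p = 0.00173). Slc7a5 and Slc38a2 were lower as well, by -1.02 ± 0.34 and -0.66 ± 0.14 log2 units after H2O2 and -1.10 ± 0.34 and -0.73 ± 0.14 after etoposide. Slc7a1 and Slc1a4 did not pass, at -0.42 ± 0.26 (adjusted p = 0.29) and -0.14 ± 0.11 (adjusted p = 0.445) after H2O2 and -0.42 ± 0.26 (adjusted p = 0.285) and -0.14 ± 0.11 (adjusted p = 0.421) after etoposide.

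Of the other enzymes, Cth, for the cystathionine gamma-lyase that makes cysteine, had 5.58, 3.99 and 4.70 CPM after H2O2 and 4.90, 6.38 and 4.26 CPM after etoposide, against 9.94, 28.0 and 17.9 CPM in uninduced cells. All induced libraries lay below uninduced replicate 1, itself the lowest of its group (-1.97 ± 0.47 (adjusted p = 0.00269) and -1.85 ± 0.47 (adjusted p = 0.00466)). Aldh18a1, for the first enzyme of proline synthesis, had 106, 92.8 and 122 CPM after H2O2 and 120.0, 101 and 94.6 CPM after etoposide, against 127, 174 and 146 CPM in uninduced cells. The gap between groups was narrow (-0.47 ± 0.17 (adjusted p = 0.0434) and -0.50 ± 0.17 (adjusted p = 0.0313)). Stc2, which encodes the secreted glycoprotein stanniocalcin 2 (ENSMUSG00000020303, chr11:31357307-31370074), had 2.85, 0.879 and 2.41 CPM after H2O2 and 2.64, 0.716 and 5.00 CPM after etoposide, against 12.1, 18.2 and 19.2 CPM in uninduced cells. Replicate 2 was the lowest in both induced groups, and the log2 fold changes were -3.02 ± 0.77 (adjusted p = 0.00475) and -2.58 ± 0.75 (adjusted p = 0.0137). Vldlr, for the very low density lipoprotein receptor, had 49.9, 32.1 and 49.1 CPM after H2O2 and 39.7, 35.2 and 44.5 CPM after etoposide, against 58.1, 60.7 and 72.8 CPM in uninduced cells (-0.55 ± 0.20 (adjusted p = 0.0474) and -0.68 ± 0.20 (adjusted p = 0.0126)).

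The stress regulators behaved otherwise. Atf4 (ENSMUSG00000042406, chr15:80255184-80257541) had 286, 286 and 296 CPM after H2O2 and 356, 308 and 327 CPM after etoposide, against 291, 316 and 315 CPM in uninduced cells. The groups overlapped (-0.09 ± 0.09 (adjusted p = 0.532) and 0.10 ± 0.09 (adjusted p = 0.457)). Ddit3, for the stress transcription factor CHOP (ENSMUSG00000025408, chr10:127290774-127296288), had 89.2, 49.4 and 53.0 CPM after H2O2 and 90.9, 46.3 and 50.1 CPM after etoposide, against 26.0, 35.5 and 37.3 CPM in uninduced cells. Every induced library exceeded every uninduced one, but the spread, with replicate 1 highest, left it short of the threshold (0.96 ± 0.37 (adjusted p = 0.069) and 0.92 ± 0.37 (adjusted p = 0.0809)). Ppp1r15a (ENSMUSG00000040435, chr7:45522916-45526268) had 92.3, 70.6 and 75.3 CPM after H2O2 and 112, 67.5 and 98.0 CPM after etoposide, against 42.0, 43.4 and 46.2 CPM in uninduced cells. It passed after etoposide (1.07 ± 0.34 (adjusted p = 0.023)) and not after H2O2 (0.86 ± 0.33 (adjusted p = 0.0741)), and the difference between inducers was not tested. Cebpg, for a C/EBP partner of ATF4, had 37.5, 42.6 and 41.4 CPM after etoposide, against 50.4, 66.6 and 57.9 CPM in uninduced cells (-0.53 ± 0.19 (adjusted p = 0.0481)). The proliferation markers fell with induction, 5 of 5 in each comparison, and their summed level was 60.5 to 110.2 CPM after H2O2 and 28.8 to 189 CPM after etoposide, against 698 to 809.8 CPM in uninduced cells. Markers of other cell types moved as well. After H2O2, the lower calls were 2 of 5 epithelial markers (Krt19, -3.28, and Krt18, -1.57), 1 of 4 endothelial (Emcn, -2.32) and 1 of 4 muscle markers (Des, -1.57), and no fibroblast, macrophage or neural marker was called. After etoposide they were Krt19 (-2.74), Emcn (-2.48), Kdr (-1.65), Des (21.1 CPM after etoposide, against 59.1 CPM in uninduced cells) and 2 of 6 fibroblast markers, Col1a1 (-0.77) and Col1a2 (-0.58). Summed epithelial markers were 2.29 to 4.02 CPM after H2O2 and 2.93 to 6.03 CPM after etoposide, against 23.5 to 34.0 CPM in uninduced cells, and summed muscle markers 14.5 to 28.2 and 14.4 to 34.8 CPM, against 41.9 to 73.1 CPM. Summed fibroblast markers were 16980.0 to 17430.0 and 14650.0 to 18910.0 CPM, against 19120.0 to 22660.0 CPM. The part of these markers in the results for the 32 genes was not tested. With 1 replicate set left out at a time, 7 to 10 genes were called after H2O2 and 6 to 13 after etoposide. Shares over all genes in such fits are not given, here or in the paragraphs below. Changes in these counts therefore cannot be set against changes over all genes. The fewest were called without uninduced replicate set 2 or 3 after H2O2 (7 each) and without uninduced replicate set 3 after etoposide. Psat1, Shmt2, Cth, Slc7a3, Slc1a5 and Slc38a2 were called in every such fit for both inducers.

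ESA raised 8 of the 12 stress regulators and the secreted Gdf15 and Stc2 in uninduced cells, with fewer calls among enzymes and transporters. With ESA, 15 of 32 genes were called higher and 1 lower than with vehicle, against 9.19% and 10.6% of all genes (19.8% in either direction). By role the calls higher were 8 of 12 stress regulators (median log2 fold change 0.40), 2 of 3 secreted or receptor genes (0.81), 1 of 5 serine and one-carbon enzymes (0.17), 2 of 6 other enzymes (0.22) and 2 of 6 transporters (0.18), with 1 transporter lower. The median was 0.28 over the 32 genes and -0.02 over all genes. The largest rise was in Gdf15, which encodes a secreted stress cytokine (ENSMUSG00000038508, chr8:70629393-70632456) and had 26.2, 46.9 and 31.9 CPM with ESA, against 11.5, 18.6 and 15.9 CPM with vehicle. Each ESA library exceeded all vehicle libraries, for a log2 fold change of 1.17 ± 0.13 (adjusted p = 3.93e-07). Stc2 had 19.9, 35.1 and 32.4 CPM with ESA, against 12.1, 18.2 and 19.2 CPM with vehicle, again with no overlap (0.81 ± 0.14 (adjusted p = 0.000137)).

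Of the regulators in uninduced cells, Ppp1r15a had 61.4, 104 and 73.6 CPM with ESA, against 42.0, 43.4 and 46.2 CPM with vehicle. The groups did not overlap, and replicate 2 was highest with ESA (0.84 ± 0.16 (adjusted p = 0.000444)). Ddit3 had 41.3, 65.4 and 49.1 CPM with ESA, against 26.0, 35.5 and 37.3 CPM with vehicle. Its lowest ESA library still lay above the highest vehicle library (0.65 ± 0.11 (adjusted p = 8.83e-05)). Atf4 had 359, 403 and 366 CPM with ESA, against 291, 316 and 315 CPM with vehicle, a small and uniform change (0.29 ± 0.07 (adjusted p = 0.00369)). Nupr1 (0.54 ± 0.08 (adjusted p = 1.78e-05)), Cebpb (0.64 ± 0.22 (adjusted p = 0.0356)), the pseudokinase gene Trib3 (0.57 ± 0.17 (adjusted p = 0.0166)), the mTORC1 inhibitor gene Ddit4 (0.50 ± 0.14 (adjusted p = 0.00797)) and Eif4ebp1, for a translation repressor (0.27 ± 0.10 (adjusted p = 0.0495)), made up the other 5 calls. Atf5, Cebpg, Jdp2 and Sesn2, for a leucine-sensing stress protein, did not pass, at 0.21 ± 0.10, 0.06 ± 0.13, -0.18 ± 0.12 and 0.20 ± 0.08.

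Among the enzymes in uninduced cells, Got1, for cytosolic aspartate aminotransferase, had 70.9, 114 and 75.9 CPM with ESA, against 47.8, 63.8 and 55.1 CPM with vehicle. No ESA library fell within the vehicle range (0.62 ± 0.12 (adjusted p = 0.000284)). Asns had 248, 358 and 273 CPM with ESA, against 189, 258 and 241 CPM with vehicle; ESA replicate 1 lay within the vehicle range, but each replicate set rose (0.35 ± 0.10 (adjusted p = 0.0112)). Psph, for phosphoserine phosphatase, had 58.9, 85.1 and 62.1 CPM with ESA, against 43.1, 61.6 and 53.4 CPM with vehicle, with the same kind of overlap (0.38 ± 0.11 (adjusted p = 0.0146)). Slc7a1, a carrier of arginine and lysine (ENSMUSG00000041313, chr5:148327410-148399904), had 163, 206 and 177 CPM with ESA, against 129, 154 and 134 CPM with vehicle, without overlap (0.39 ± 0.08 (adjusted p = 0.00111)). Slc7a3 had 25.1, 38.2 and 30.2 CPM with ESA, against 14.6, 26.6 and 23.9 CPM with vehicle, overlapping at replicate 1 (0.55 ± 0.17 (adjusted p = 0.0184)). Slc38a2 moved the other way, with 315, 244 and 280.5 CPM with ESA, against 371, 351 and 359 CPM with vehicle. All its ESA libraries were below all vehicle libraries (-0.37 ± 0.09 (adjusted p = 0.00463)). Cbs, with 1, 2 and 6 reads with ESA and 4, 15 and 6 with vehicle, did not pass (-1.33 ± 0.55 (adjusted p = 0.0879)).

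Other markers moved in the same libraries. The 5 proliferation markers were all called lower with ESA in uninduced cells, with a summed level of 324 to 488 CPM with ESA, against 698 to 809.8 CPM with vehicle. The 4 of 6 fibroblast markers that were called were lower, with sums of 15520.0 to 18870.0 CPM with ESA, against 19120.0 to 22660.0 CPM with vehicle, and 1 of 4 macrophage markers, Cd68, was higher (0.82), with sums of 21.9 to 27.3 CPM with ESA, against 13.7 to 26.9 CPM with vehicle. Of 4 neural markers Map2 was lower (-1.30), with sums of 59.3 to 83.6 CPM with ESA, against 60.4 to 107.7 CPM with vehicle, and no epithelial, endothelial or muscle marker was called. Their part in the results for the 32 genes was not tested. When all 5 libraries of a replicate set were left out, 10 genes were called without replicate 1, 5 without replicate 2 and 13 without replicate 3. Shares over all genes in these fits are not given. Atf4, Ppp1r15a, Ddit4, Slc7a1 and Slc38a2 lost their calls only without replicate 2, while Ddit3, Nupr1, Gdf15, Stc2 and Got1 kept theirs in each case.

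The response to ESA in induced cells had fewer calls, with medians over the 32 genes close to that in uninduced cells. In H2O2-induced cells 9 genes were called higher and 0 lower, against 1.20% and 0.278% of all genes (1.48% in either direction), and in etoposide-induced cells 3 were called higher and 0 lower, against 0.550% and 0.0618% (0.611% in either direction). The counts by unadjusted p under 0.05 were 21 genes in uninduced cells, 19 after H2O2 and 18 after etoposide, in both directions together. Of all 16194 genes tested, 5054, 2267 and 1935 had such a p in these states. Medians over the 32 genes were 0.24 and 0.25 in H2O2- and etoposide-induced cells, each with -0.01 over all genes, and 27 genes had a log2 fold change above 0 in each state. The H2O2 calls comprised 5 of 12 stress regulators (median 0.26), 2 of 3 secreted or receptor genes (0.54), 0 of 5 serine and one-carbon enzymes (0.24), 1 of 6 other enzymes (0.18) and 1 of 6 transporters (0.22). Those after etoposide comprised 0 of 12 (0.17), 2 of 3 (0.91), 0 of 5 (0.19), 0 of 6 (0.25) and 1 of 6 (0.26). Gdf15, Stc2 and Slc7a1 were called higher with ESA in all 3 states. The share of all genes called in all 3 states was not counted.

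In H2O2-induced cells Stc2 had 8.40, 1.44 and 6.04 CPM with ESA, against 2.85, 0.879 and 2.41 CPM with vehicle. Replicate set 2 was low under both treatments, so the groups overlapped while each pair rose (1.31 ± 0.19 (adjusted p = 0.000392)). Trib3 had 78.5, 28.8 and 37.2 CPM with ESA, against 34.8, 16.7 and 32.7 CPM with vehicle, with replicate 1 far above the others (0.74 ± 0.18 (adjusted p = 0.0254)). Ppp1r15a had 204, 90.0 and 91.6 CPM with ESA, against 92.3, 70.6 and 75.3 CPM with vehicle, and ESA replicates 2 and 3 fell inside the vehicle range (0.61 ± 0.16 (adjusted p = 0.0447)). Ddit3 showed the same order, with 142, 66.2 and 60.9 CPM with ESA, against 89.2, 49.4 and 53.0 CPM with vehicle (0.44 ± 0.11 (adjusted p = 0.0249)). Atf4 alone of these had no overlap, with 398, 343 and 320.0 CPM with ESA, against 286, 286 and 296 CPM with vehicle (0.29 ± 0.07 (adjusted p = 0.032)). Gdf15 had 20.4, 14.9 and 9.13 CPM with ESA, against 10.8, 11.6 and 7.52 CPM with vehicle (0.54 ± 0.14 (adjusted p = 0.0353)). Got1 had 108, 52.2 and 61.9 CPM with ESA, against 61.7, 44.6 and 49.6 CPM with vehicle (0.46 ± 0.12 (adjusted p = 0.0353)), and Slc7a1 191, 104 and 115 CPM against 129, 91.2 and 90.9 CPM (0.37 ± 0.08 (adjusted p = 0.0189)). In each of those 3 genes the ESA library of replicate set 1 was the highest and the groups overlapped. Nupr1 was the remaining call (0.32 ± 0.08 (adjusted p = 0.032)). No gene was called without replicate set 1, 5 were without replicate set 2 and 2 without replicate set 3, and no gene kept its call in all 3 of these fits.

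In etoposide-induced cells Gdf15 had 18.0, 20.3 and 13.4 CPM with ESA, against 8.55, 12.2 and 5.92 CPM with vehicle, the only call there without overlap (0.98 ± 0.14 (adjusted p = 0.000234)). Stc2 had 6.54, 1.31 and 8.08 CPM with ESA, against 2.64, 0.716 and 5.00 CPM with vehicle, with replicate set 2 lowest in both (0.91 ± 0.19 (adjusted p = 0.0156)). Slc7a1 had 189.8, 108 and 116 CPM with ESA, against 136, 94.0 and 81.5 CPM with vehicle (0.39 ± 0.08 (adjusted p = 0.0188)), so ESA replicates 2 and 3 lay within the vehicle range. Atf4 had 374, 332 and 354 CPM with ESA, against 356, 308 and 327 CPM with vehicle, and Ddit3 97.6, 49.4 and 65.2 CPM with ESA, against 90.9, 46.3 and 50.1 CPM with vehicle. Neither passed (0.10 ± 0.07 (adjusted p = 0.623) and 0.19 ± 0.11 (adjusted p = 0.494)), nor did Trib3 (0.63 ± 0.17 (adjusted p = 0.0986)). Stc2 and Slc7a1 lost their calls without replicate set 1, which left 1 gene called, Gdf15, and 5 were called without replicate set 2 and 9 without replicate set 3. In induced cells the summed proliferation markers were 18.3 to 66.6 CPM with ESA, against 60.5 to 110.2 CPM with vehicle after H2O2, and 11.3 to 139 CPM with ESA, against 28.8 to 189 CPM with vehicle after etoposide.

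**Figure D2:**
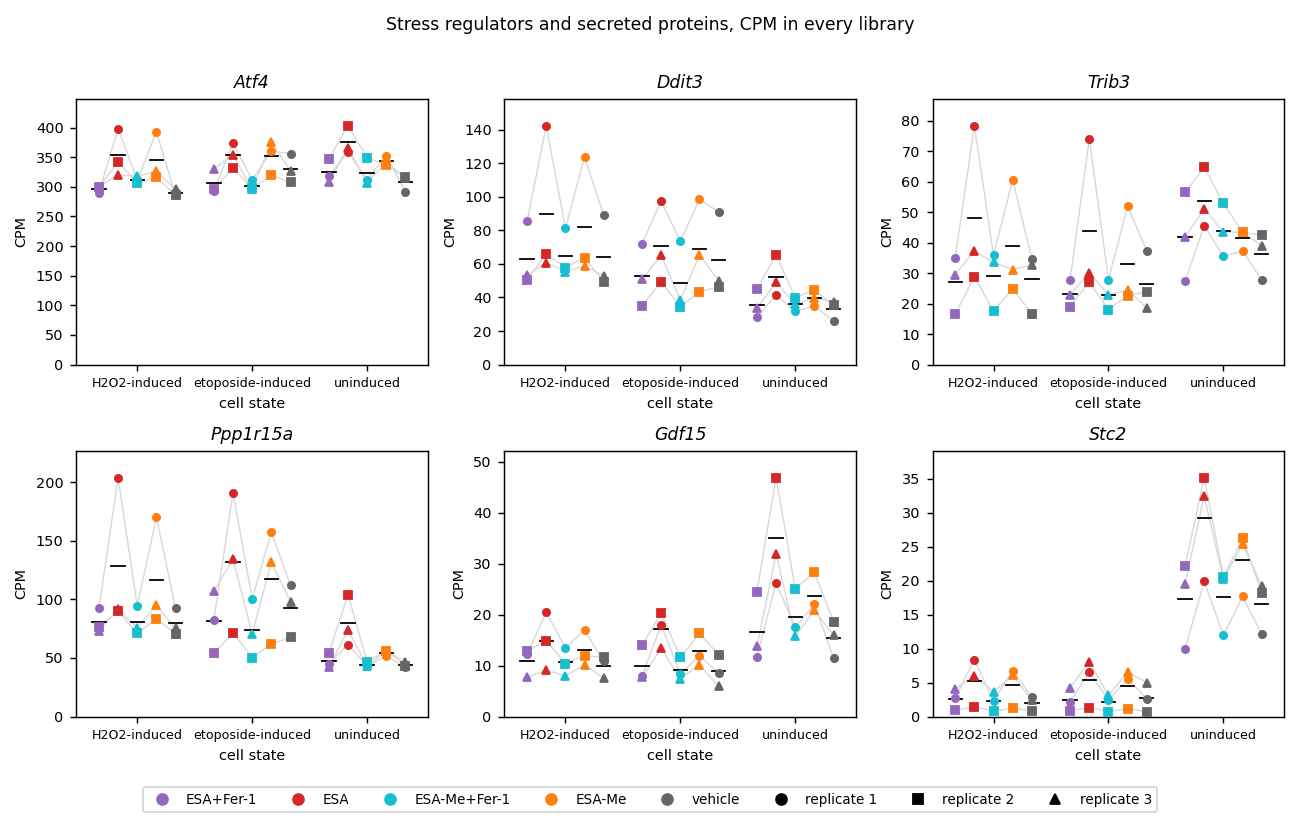
Points give the CPM of each library for 4 stress regulators and 2 secreted proteins in 15 groups, by cell state on the horizontal axis, with bars at the group means. Gdf15 with ESA lies above vehicle in uninduced and etoposide-induced cells, while 1 library of the H2O2-induced ESA group stands high for Ddit3, Trib3 and Ppp1r15a.

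The size of the ESA response varied between replicate sets. Over 31 genes, Cbs left out, the median log2 ratio of ESA to vehicle within a pair was 0.29, 0.37 and 0.18 in replicates 1 to 3 of uninduced cells, 0.45, 0.20 and 0.13 in H2O2-induced cells and 0.36, 0.11 and 0.32 in etoposide-induced cells. It was above 0 in all 9 pairs, with 23 to 28 of the 31 genes above 0, while the median over all genes tested stayed within 0.04 of 0. When Fer-1 was added to ESA, the pair medians were -0.36, -0.27 and -0.25 in uninduced, -0.55, -0.22 and -0.19 in H2O2-induced and -0.66, -0.24 and -0.26 in etoposide-induced cells. Pairs of ESA with Fer-1 and pairs of ESA with vehicle share their ESA libraries. Without the pairing, the lowest adjusted p of any of the 32 genes was 0.106 for ESA in uninduced cells and 0.158 for Fer-1 added to ESA there. The counts at an unadjusted p under 0.05 were then 6, 2 and 2 genes for ESA and 7, 5 and 7 genes for Fer-1 added to ESA, in uninduced, H2O2-induced and etoposide-induced cells, and over all genes 23, 0 and 0 and 29, 3 and 0 passed the adjusted threshold.

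**Figure D3:**
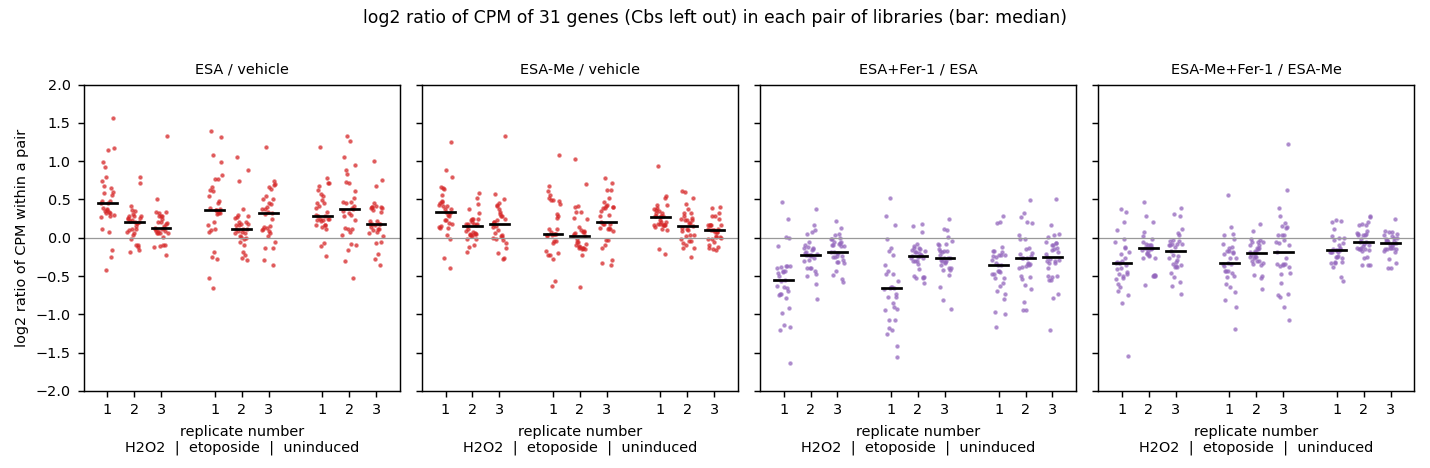
Each point is the log2 ratio of CPM of 1 of 31 genes within a pair of libraries of the same replicate set (horizontal axis, replicate number by cell state), and bars are medians. The medians of ESA over vehicle lie between 0.11 and 0.45, and those of ESA with Fer-1 over ESA between -0.66 and -0.19.

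ESA-Me gave values on the same side in most genes with few calls. In uninduced cells 1 gene was called higher and 0 lower, against 1.01% and 0.630% of all genes (1.64% in either direction). In H2O2-induced cells 3 were called higher and 0 lower, against 0.766% and 0.142% (0.908% in either direction). In etoposide-induced cells 0 were called higher and 0 lower, against 0.272% and 0.0124% (0.284% in either direction), with 6 genes at an unadjusted p under 0.05 and 2 called by DESeq2. Of all 16194 genes tested, 2049 had an unadjusted p under 0.05 there. In uninduced and H2O2-induced cells 10 and 16 of the 32 genes had such a p, against 2432 and 2184 of all genes. Median log2 fold changes over the 32 genes were 0.15, 0.22 and 0.10 in uninduced, H2O2-induced and etoposide-induced cells. Gdf15 had 22.1, 28.3 and 20.9 CPM with ESA-Me, against 11.5, 18.6 and 15.9 CPM with vehicle in uninduced cells. The ESA-Me libraries all lay above the vehicle ones (0.64 ± 0.13 (adjusted p = 0.00894)). In H2O2-induced cells Stc2 had 6.75, 1.19 and 6.07 CPM with ESA-Me, against 2.85, 0.879 and 2.41 CPM with vehicle (1.10 ± 0.20 (adjusted p = 0.00402)). Nupr1 had 760.4, 446 and 613 CPM with ESA-Me, against 583, 375 and 447 CPM with vehicle (0.37 ± 0.08 (adjusted p = 0.0185)), and Slc7a1 161, 104 and 129 CPM with ESA-Me, against 129, 91.2 and 90.9 CPM with vehicle (0.33 ± 0.08 (adjusted p = 0.0459)). In these 3 genes the groups overlapped and every pair rose.

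For Atf4 the ESA-Me libraries had 353, 336 and 342 CPM in uninduced, 392, 316 and 326 CPM in H2O2-induced and 360.5, 319 and 375 CPM in etoposide-induced cells, and it did not pass in any state (0.16 ± 0.07 (adjusted p = 0.266), 0.25 ± 0.07 (adjusted p = 0.0868) and 0.09 ± 0.07 (adjusted p = 0.601)). For Ddit3 they had 35.1, 44.4 and 39.9, 124, 63.7 and 58.7 and 98.7, 43.5 and 65.5 CPM, again without a call (0.28 ± 0.11 (adjusted p = 0.19), 0.33 ± 0.11 (adjusted p = 0.137) and 0.14 ± 0.11 (adjusted p = 0.584)). Leaving out any 1 replicate set of uninduced cells ended the Gdf15 call, and without replicate set 1 or 3 of H2O2-induced cells none of the 32 genes was called. Without replicate set 3 of etoposide-induced cells 6 genes were called. Set beside these, without a test since the doses are stated in conflicting ways, the log2 fold change of Gdf15 in uninduced cells was 0.64 ± 0.13 with ESA-Me and 1.17 ± 0.13 with ESA, and that of Stc2 in H2O2-induced cells was 1.10 ± 0.20 and 1.31 ± 0.19. ESA and ESA-Me were compared with the same vehicle libraries. Summed proliferation markers in uninduced cells were 549 to 593 CPM with ESA-Me, against 698 to 809.8 CPM with vehicle. They were 27.8 to 80.5 against 60.5 to 110.2 CPM in H2O2-induced cells. In etoposide-induced cells they were 16.5 to 147.5 against 28.8 to 189 CPM. Their part in the results for ESA-Me was not tested.

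Fer-1 before ESA lowered much of the group relative to ESA alone. In uninduced cells 2 of 32 genes were called higher and 16 lower, against 10.4% and 9.65% of all genes (20.1% in either direction). In H2O2-induced cells 0 were called higher and 13 lower, against 1.14% and 3.04% (4.18% in either direction), and in etoposide-induced cells 0 higher and 13 lower, against 0.451% and 1.91% (2.37% in either direction). Median log2 fold changes over the 32 genes were -0.30, -0.30 and -0.38, with 0.02, 0.01 and 0.00 over all genes. Stress regulators called lower were 6, 5 and 3 of 12 (medians -0.31, -0.26 and -0.28) in uninduced, H2O2-induced and etoposide-induced cells. Serine and one-carbon enzymes called lower were 3, 2 and 3 of 5 (-0.23, -0.35 and -0.38), and transporters 2, 2 and 2 of 6 (-0.25, -0.22 and -0.41). Secreted or receptor genes were 2, 1 and 2 of 3 (-0.78, -0.41 and -0.82) and other enzymes 3, 3 and 3 of 6 (-0.23, -0.28 and -0.39). The genes called lower in all 3 states were Asns, Ddit3, Got1, Ppp1r15a, Psat1, Slc7a1, Slc7a5 and Stc2, 8 of the 32. For all genes the share called lower in all 3 states was not counted.

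In uninduced cells Gdf15 had 11.8, 24.5 and 13.8 CPM with ESA and Fer-1, against 26.2, 46.9 and 31.9 CPM with ESA. The groups did not overlap (-1.09 ± 0.13 (adjusted p = 1.51e-06)). Stc2 had 10.0, 22.2 and 19.6 CPM with ESA and Fer-1, against 19.9, 35.1 and 32.4 CPM with ESA (-0.78 ± 0.14 (adjusted p = 0.000192)), and Ddit3 28.6, 45.1 and 33.7 CPM against 41.3, 65.4 and 49.1 CPM (-0.54 ± 0.11 (adjusted p = 0.000618)), both with overlap between replicate sets. Ppp1r15a had 45.2, 54.1 and 42.5 CPM with ESA and Fer-1, against 61.4, 104 and 73.6 CPM with ESA, without overlap (-0.74 ± 0.16 (adjusted p = 0.00154)). Atf4 had 318, 348 and 308 CPM with ESA and Fer-1, against 359, 403 and 366 CPM with ESA, also without overlap (-0.21 ± 0.07 (adjusted p = 0.0313)). Nupr1 (-0.52 ± 0.08 (adjusted p = 2.47e-05)), Sesn2 (-0.29 ± 0.08) and Eif4ebp1 (-0.29 ± 0.10) were the other regulators called.

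Got1 in uninduced cells had 43.9, 63.3 and 51.9 CPM with ESA and Fer-1, against 70.9, 114 and 75.9 CPM with ESA, with all Fer-1 libraries lower (-0.70 ± 0.12 (adjusted p = 8.55e-05)). Cth had 7.83, 25.6 and 17.9 CPM with ESA and Fer-1, against 15.3, 30.8 and 23.7 CPM with ESA, where replicate sets differed more than treatments (-0.52 ± 0.19 (adjusted p = 0.0431)). Shmt2 had 166, 249.5 and 183 CPM with ESA and Fer-1, against 214, 316 and 230.0 CPM with ESA, and Psph 38.2, 70.9 and 56.2 CPM with ESA and Fer-1, against 58.9, 85.1 and 62.1 CPM with ESA. Both overlapped and fell in every pair (-0.34 ± 0.12 (adjusted p = 0.0398) and -0.34 ± 0.11 (adjusted p = 0.0304)). Slc7a1 had 108, 144 and 125 CPM with ESA and Fer-1, against 163, 206 and 177 CPM with ESA, without overlap (-0.54 ± 0.08 (adjusted p = 3.71e-05)). Slc7a5 had 139, 265 and 219 CPM with ESA and Fer-1, against 200.4, 314 and 248 CPM with ESA, with overlap (-0.32 ± 0.11 (adjusted p = 0.0445)). Slc38a2, lower with ESA, had 382, 343 and 399 CPM with ESA and Fer-1, against 315, 244 and 280.5 CPM with ESA, and every Fer-1 library exceeded every ESA library (0.42 ± 0.09 (adjusted p = 0.00155)). Cbs was the other gene called higher (1.73 ± 0.55 (adjusted p = 0.0241)), on 9, 8 and 7 reads with ESA and Fer-1, against 1, 2 and 6 reads with ESA, and lost the call without replicate set 1 or 2. Of the 18 calls, 8 were made without replicate set 1, 6 without replicate set 2 and 11 without replicate set 3; Ddit3, Nupr1, Gdf15, Stc2, Got1 and Slc7a1 were called each time. Other markers moved here too. With Fer-1, 4 of 5 proliferation and 3 of 6 fibroblast markers were called higher, Col3a1 (0.54) and Pdgfrb (0.50) among the fibroblast ones, as was the neural Map2 (1.29), and 2 of 4 macrophage markers were lower, Adgre1 (-0.82) and Cd68 (-0.76). Summed macrophage markers were 11.4 to 25.3 CPM with ESA and Fer-1, against 21.9 to 27.3 CPM with ESA, and summed fibroblast markers 18480.0 to 22920.0 CPM, against 15520.0 to 18870.0 CPM. The part of these markers in the results was not tested.

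**Figure D4:**
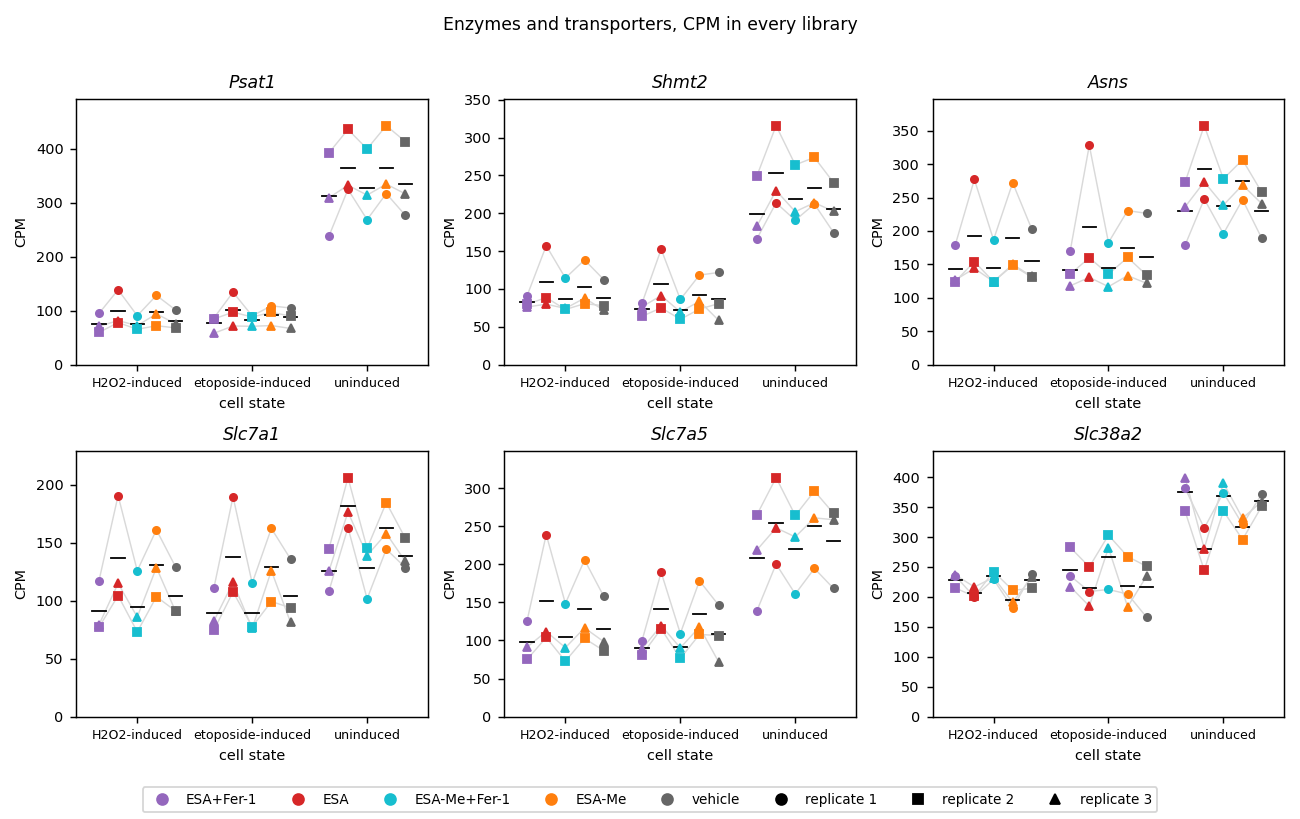
Points give the CPM of each library for 3 enzymes and 3 transporters in 15 groups, by cell state on the horizontal axis, with bars at the group means. Psat1 reaches at most 138 CPM in induced libraries, against at least 237 CPM in uninduced ones, and Slc38a2 is lower with ESA in uninduced cells.

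In H2O2-induced cells Slc7a1 had 117, 77.0 and 79.2 CPM with ESA and Fer-1, against 191, 104 and 115 CPM with ESA, and fell in each replicate set (-0.56 ± 0.08 (adjusted p = 0.000104)). Slc7a5 had 126, 75.0 and 91.3 CPM with ESA and Fer-1, against 239, 104 and 112 CPM with ESA (-0.57 ± 0.11 (adjusted p = 0.00334)), and Trib3 35.1, 16.6 and 29.6 CPM with ESA and Fer-1, against 78.5, 28.8 and 37.2 CPM with ESA (-0.79 ± 0.17 (adjusted p = 0.00779)). Replicate set 1 had the highest ESA value and the largest fall in these 3 genes. Ppp1r15a had 92.4, 76.0 and 73.2 CPM with ESA and Fer-1, against 204, 90.0 and 91.6 CPM with ESA (-0.59 ± 0.16 (adjusted p = 0.0324)). Ddit3 had 85.5, 50.5 and 53.2 CPM with ESA and Fer-1, against 142, 66.2 and 60.9 CPM with ESA (-0.45 ± 0.11 (adjusted p = 0.0119)). Atf4 had 290.3, 299 and 300.3 CPM with ESA and Fer-1, against 398, 343 and 320.0 CPM with ESA, the only one of the 13 without overlap (-0.25 ± 0.07 (adjusted p = 0.0399)). Stc2 had 2.70, 0.941 and 4.04 CPM with ESA and Fer-1, against 8.40, 1.44 and 6.04 CPM with ESA (-1.02 ± 0.19 (adjusted p = 0.0013)). Changes of the enzymes were -0.39 ± 0.08 (adjusted p = 0.00664) for Psat1, -0.35 ± 0.08 (adjusted p = 0.0129) for Mthfd2, -0.79 ± 0.22 (adjusted p = 0.0342) for Cth, -0.58 ± 0.12 (adjusted p = 0.00334) for Got1 and -0.38 ± 0.10 (adjusted p = 0.025) for Asns. No gene was called without replicate set 1, while 9 were without replicate set 2 and 8 without replicate set 3. Of the proliferation markers, 3 of 5 were called higher with Fer-1, with sums of 64.9 to 100.7 CPM with ESA and Fer-1, against 18.3 to 66.6 CPM with ESA; no other marker was called, and their part was not tested.

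Psat1 in H2O2-induced cells had 94.6, 59.4 and 70.8 CPM with ESA and Fer-1, against 138, 77.8 and 81.4 CPM with ESA, and Mthfd2 108, 79.7 and 80.3 CPM with ESA and Fer-1, against 146, 105 and 92.3 CPM with ESA. Got1 had 54.5, 42.6 and 45.6 CPM with ESA and Fer-1, against 108, 52.2 and 61.9 CPM with ESA, and Cth 4.84, 2.48 and 4.76 CPM with ESA and Fer-1, against 11.1, 3.51 and 6.68 CPM with ESA. In all 4 genes the groups overlapped and replicate set 1 with ESA was the highest library.

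In etoposide-induced cells Slc7a5 had 99.8, 81.2 and 89.2 CPM with ESA and Fer-1, against 189.5, 115 and 119.6 CPM with ESA, the only one of the 13 calls without overlap (-0.61 ± 0.11 (adjusted p = 0.00218)). Slc7a1 had 111, 74.6 and 82.5 CPM with ESA and Fer-1, against 189.8, 108 and 116 CPM with ESA (-0.60 ± 0.08 (adjusted p = 0.000122)). Stc2 had 2.21, 0.871 and 4.23 CPM with ESA and Fer-1, against 6.54, 1.31 and 8.08 CPM with ESA (-1.07 ± 0.20 (adjusted p = 0.00219)), and Gdf15 7.96, 14 and 7.69 CPM with ESA and Fer-1, against 18.0, 20.3 and 13.4 CPM with ESA (-0.82 ± 0.14 (adjusted p = 0.0008)). Both secreted genes fell in all 3 replicate sets. Trib3 had 27.9, 19.0 and 22.9 CPM with ESA and Fer-1, against 74.1, 27.1 and 30.2 CPM with ESA (-0.78 ± 0.18 (adjusted p = 0.0148)), and Ppp1r15a 82.7, 53.8 and 107 CPM with ESA and Fer-1, against 191, 71.4 and 134 CPM with ESA (-0.63 ± 0.16 (adjusted p = 0.0299)). Ddit3 had 72.1, 34.9 and 50.9 CPM with ESA and Fer-1, against 97.6, 49.4 and 65.2 CPM with ESA (-0.43 ± 0.11 (adjusted p = 0.0262)). Atf4, with 293, 296 and 330.1 CPM with ESA and Fer-1, against 374, 332 and 354 CPM with ESA, did not pass (-0.20 ± 0.07 (adjusted p = 0.126)). The enzyme calls were Shmt2 (-0.46 ± 0.12), Mthfd2 (-0.38 ± 0.08), Psat1 (-0.38 ± 0.08), Asns (-0.46 ± 0.10), Got1 (-0.57 ± 0.12) and Aldh18a1 (-0.33 ± 0.09). Without replicate set 1 only Slc7a1 was called, without replicate set 2 there were 12 calls and without replicate set 3 there were 16.

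The values behind those enzyme calls show replicate set 1 apart. Got1 had 54.2, 40.7 and 45 CPM with ESA and Fer-1, against 114, 46.5 and 60.1 CPM with ESA in etoposide-induced cells. Asns had 169.5, 135 and 118 CPM with ESA and Fer-1, against 328, 160.0 and 130.5 CPM with ESA. In both genes replicate set 1 with ESA was the highest library and had the largest fall. Shmt2 had 81.1, 63.7 and 76.3 CPM with ESA and Fer-1, against 152, 74.9 and 91.2 CPM with ESA, and Mthfd2 90.4, 88.7 and 70.5 CPM with ESA and Fer-1, against 143, 109 and 79.1 CPM with ESA. Every pair fell, and the groups overlapped.

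Fer-1 before ESA-Me gave fewer calls. In uninduced cells 0 genes were called higher and 1 lower, against 1.74% and 1.94% of all genes (3.68% in either direction), in H2O2-induced cells 0 and 7, against 0.445% and 1.68% (2.12% in either direction), and in etoposide-induced cells 0 and 7, against 1.80% and 2.65% (4.45% in either direction). Median log2 fold changes over the 32 genes were -0.10, -0.20 and -0.24. Of the 32 genes, only Slc7a1 was called lower in all 3 states, a count not made over all genes. It had 102, 145 and 139 CPM with ESA-Me and Fer-1, against 144, 185 and 158 CPM with ESA-Me in uninduced cells (-0.34 ± 0.08 (adjusted p = 0.0169)), 126, 73.2 and 86.0 CPM against 161, 104 and 129 CPM in H2O2-induced cells (-0.48 ± 0.08 (adjusted p = 0.00153)) and 115, 77.6 and 76.2 CPM against 162, 99.4 and 126 CPM in etoposide-induced cells (-0.53 ± 0.08 (adjusted p = 0.000218)). The groups overlapped in each state and all 9 pairs fell. Stc2 had 2.32, 0.846 and 3.67 CPM with ESA-Me and Fer-1, against 6.75, 1.19 and 6.07 CPM with ESA-Me in H2O2-induced cells (-1.01 ± 0.20 (adjusted p = 0.00537)), and 2.43, 0.735 and 3.12 CPM against 5.57, 1.17 and 6.57 CPM in etoposide-induced cells (-1.06 ± 0.20 (adjusted p = 0.00169)). Slc7a5 changed by -0.44 ± 0.11 (adjusted p = 0.0332) and -0.53 ± 0.11 (adjusted p = 0.0061) and Got1 by -0.46 ± 0.12 (adjusted p = 0.0306) and -0.41 ± 0.12 (adjusted p = 0.0376) in the same 2 states. The other calls were Nupr1 (-0.29 ± 0.08), Psat1 (-0.34 ± 0.08) and Asns (-0.36 ± 0.10) in H2O2-induced cells and Ddit3 (-0.51 ± 0.11), Ppp1r15a (-0.62 ± 0.16) and Gdf15 (-0.49 ± 0.14) in etoposide-induced cells. In etoposide-induced cells 4 of 5 proliferation markers were called higher with Fer-1 added to ESA-Me, and Krt19 was lower there (-0.77) and in H2O2-induced cells (-0.79); their part was not tested. With 1 replicate set left out there were 0 calls in uninduced cells, 1 to 5 in H2O2-induced cells (5 without replicate set 2, 1 without replicate set 1 or 3) and 2 to 6 in etoposide-induced cells (4, 6 and 2 without replicate sets 1, 2 and 3).

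With Fer-1 present, neither compound gave a call against vehicle. For ESA with Fer-1, edgeR called 0 of the 32 genes in each state, against 0% of all genes, with 0, 1 and 6 of the 32 at an unadjusted p under 0.05 in uninduced, H2O2-induced and etoposide-induced cells and 0 by DESeq2. Of all 16194 genes tested, 600, 390 and 676 had an unadjusted p under 0.05. For ESA-Me with Fer-1, edgeR called 0 of 32, against 0%, 0% and 0.0185% of all genes, with 2, 0 and 8 at an unadjusted p under 0.05 and 0 by DESeq2. Of all genes tested, 543, 643 and 1738 had an unadjusted p under 0.05. Median log2 fold changes over the 32 genes were 0.03, -0.01 and -0.14 for ESA with Fer-1 and 0.06, 0.01 and -0.11 for ESA-Me with Fer-1. Gdf15 in uninduced cells, for example, had 11.8, 24.5 and 13.8 CPM with ESA and Fer-1, against 11.5, 18.6 and 15.9 CPM with vehicle (0.08 ± 0.13). Misses of the threshold do not show equal levels. In etoposide-induced cells, leaving out replicate set 3 gave 10 calls for ESA with Fer-1 and 7 for ESA-Me with Fer-1, and Ddit3 there had log2 fold changes of -0.24 ± 0.11 (adjusted p = 0.999) and -0.37 ± 0.11 (adjusted p = 0.344) with all replicate sets. Shares over all genes without replicate set 3 are not given here. Because Fer-1 was not given alone, its own effect on these genes cannot be told apart from its effect on the response to the compounds.

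**Figure D5:**
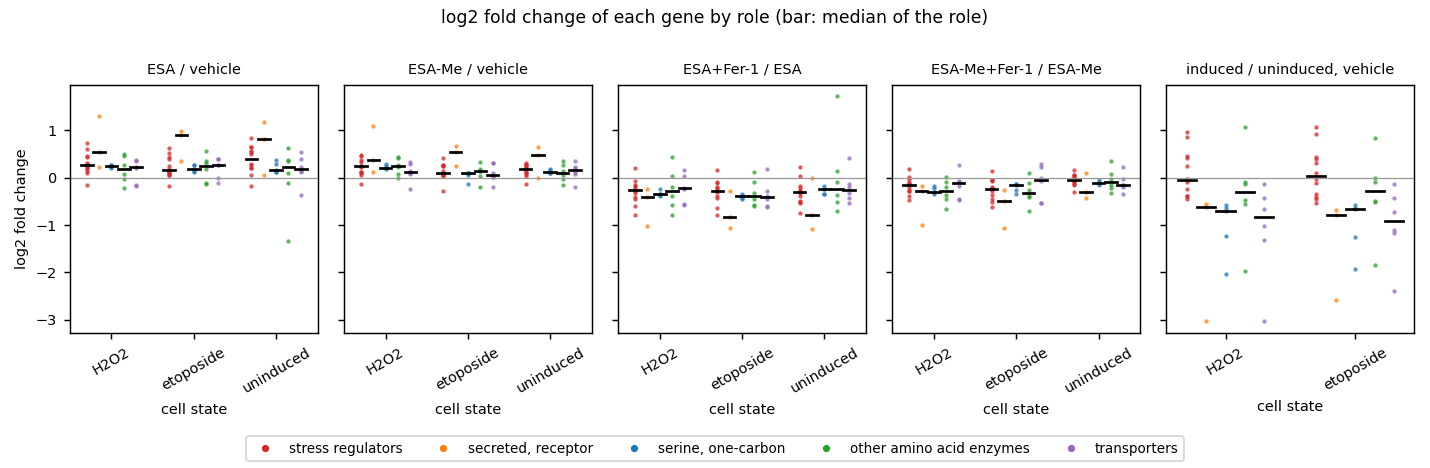
The plot gives, for each role, the log2 fold changes of its genes with each compound, with Fer-1 added to each and with induction (panels, by cell state), with bars at the medians. Secreted or receptor genes have the highest median with ESA in each state (0.54 to 0.91), and transporters the lowest after induction (-0.84 and -0.91).

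Whether the responses to the compounds differed between states was tested directly. For ESA, 0 of 32 genes differed between H2O2-induced and uninduced cells, against 0.259% of all genes, with 0 by DESeq2. Between etoposide-induced and uninduced cells 1 differed, against 0.741% of all genes, with 1 by DESeq2. At an unadjusted p under 0.05 there were 3 and 4 of 32, against 1275 and 1907 of all 16194 genes. For ESA-Me both counts were 0, against 0% of all genes, with 0 by DESeq2. At an unadjusted p under 0.05 there were 1 and 0 of 32, against 445 and 792 of all genes. The exception was Nupr1, which had 460.0, 428 and 465 CPM with ESA, against 524, 425 and 367 CPM with vehicle in etoposide-induced cells, and 496, 509 and 526 CPM with ESA, against 353, 311 and 396 CPM with vehicle in uninduced cells. The ESA library exceeded its vehicle library in 2 of 3 etoposide pairs and in 3 of 3 uninduced pairs, and the log2 fold changes were 0.05 ± 0.08 and 0.54 ± 0.08. Their difference was -0.49 ± 0.11 (adjusted p = 0.0251). It no longer passed when any 1 uninduced replicate set or etoposide replicate set 1 or 2 was left out, without the pairing, or when only the states compared entered the fit. Other differences were -0.63 ± 0.19 (adjusted p = 0.191) for Gdf15 between H2O2-induced and uninduced cells and -0.46 ± 0.15 (adjusted p = 0.161) for Ddit3 between etoposide-induced and uninduced cells. For the 31 genes other than Nupr1 a difference in the ESA response did not pass the test, which does not show equal responses.

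Genes of the same pathways outside the 32 were counted from lists drawn up with earlier results of these data known. Over all genes tested, 9.19% were called higher with ESA in uninduced cells, 1.20% after H2O2 and 0.550% after etoposide, and 9.65%, 3.04% and 1.91% were called lower when Fer-1 was added. Of 18 cytosolic tRNA synthetase genes, which charge tRNAs with amino acids, 13 were called higher with ESA in uninduced cells, 1 after H2O2 and 0 after etoposide, and 14, 5 and 3 were called lower when Fer-1 was added to ESA; Rars (0.56) and Tars (0.54) had the largest changes with ESA. Of 14 other ATF4 targets, 8, 5 and 4 were called higher with ESA and 9, 6 and 7 lower with Fer-1. Slc7a11, for the cystine carrier that feeds glutathione synthesis, changed by 1.92, 1.72 and 1.83 with ESA, and the stress factor gene Atf3 by 1.88, 2.51 and 2.24. Of 12 further one-carbon genes, 5 were called lower after each inducer, against 8.58% of all genes after H2O2 and 8.54% after etoposide, among them Aldh1l2 (-1.56 and -1.69). Of 14 further amino acid transporter genes, 2 were higher and 4 lower after H2O2 and 2 higher and 5 lower after etoposide, against 8.92% higher and 8.58% lower and 9.20% higher and 8.54% lower over all genes, among them Slc43a2 (1.32 and 1.26) and Slc38a4 (-4.86 and -4.28). With ESA in uninduced cells 0 of those transporters were called higher and 5 lower, against 9.19% and 10.6% of all genes, Slc1a3 (-1.17) and Slc7a2 (-0.77) the most. Of 6 genes for eIF2α, its kinases and its phosphatase, only Eif2s1 (0.31) was called with ESA in uninduced cells (19.8% of all genes in either direction), and of 12 chaperone genes of the endoplasmic reticulum Dnajb9 was called higher (0.63) and Calr lower (-0.20).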

How the data were processed

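The authors deposited raw read counts per gene for 45 libraries, prepared from Trizol-extracted RNA with the TruSeq Stranded Total RNA kit, per the labels' protocols. Per the submitters' processing notes the tools were FastQC, HISAT2 2.1.0, featureCounts and edgeR with GRCm38. Their settings, strand use included, are not given in the sources used here. Reads of Ddit3, Atf5, Ppp1r15a, Cebpb, Cebpg, Jdp2, Shmt2, Psph and Psat1 may therefore include those of overlapping antisense genes, for Psat1 a pseudogene. Of 57010 identifiers, 52029 were in GENCODE M21, whose coordinates are used, and the others held 0.275% of counts. Groups came from sample titles. No 2 libraries were identical.

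Counts were filtered with filterByExpr (16194 genes, 99.95% of counts), scaled with TMM (factors 0.94 to 1.07) and fitted with the quasi-likelihood model of edgeR 4.0.16 in R 4.3.3 with Benjamini-Hochberg adjustment over all genes. CPM use TMM-scaled library sizes. Comparisons within a state and differences between states used a block for the replicate number nested in state, since libraries of equal number within a state deviated together (correlations 0.26 to 0.82). Between states these were -0.22 to 0.05, with up to 0.26 for other numbers, so the senescence comparisons had no block. The common dispersion was 0.0102 with the block and 0.0722 without it. In fits with the block, p-values measure the spread left once the level of each replicate set is removed. In the senescence comparisons they measure spread between libraries, all treated as independent. Alternatives were DESeq2 1.42.0, RLE and library-size scaling, no filter, no block, only the states compared, and each replicate set left out.

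The 32 genes and the lists were chosen with earlier results of these data known. Values in every library are given for Atf4, Ddit3 and, per role and direction, the 2 called genes with the largest absolute log2 fold change. For Fer-1 added to ESA-Me they are limited to Slc7a1 and Stc2. For the groups with Fer-1 set against vehicle they are limited to Gdf15 in uninduced cells.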

Additional observations from a re-analysis of the deposited data

Results flagged for a closer look

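Nupr1 was singled out because its response to ESA differed between states by a direct test: the log2 fold change in etoposide-induced cells minus that in uninduced cells was -0.49 ± 0.11 (adjusted p = 0.0251). Between H2O2-induced and uninduced cells the difference was -0.22 ± 0.11 (adjusted p = 0.649), and with ESA-Me the differences were -0.12 ± 0.11 for etoposide-induced and 0.17 ± 0.11 for H2O2-induced cells. In etoposide-induced cells replicate 1 had a lower level with ESA than with vehicle, and replicates 2 and 3 a higher one.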

How the results depend on the processing

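Of 116 calls of the 32 genes over all comparisons, 0 reversed direction under any alternative, 13 were kept under every setting and 27 under every fit that left out a replicate set. Those 13 were all calls of the senescence comparisons, which had no block to remove and so did not face that alternative. The replicate block moved the counts most: all 92 calls in the fits with the block were lost without it, so that 0 genes were called for ESA, for ESA with Fer-1 against ESA, for ESA-Me in uninduced and H2O2-induced cells, for ESA-Me with Fer-1 against ESA-Me and for the Nupr1 difference. A block shared across states, which the numbers do not bear out, gave 16 calls after H2O2 and 15 after etoposide. All 116 calls were kept with DESeq2, which called 6 genes for ESA in etoposide-induced cells and, for ESA-Me, 2 in uninduced cells, 5 after H2O2 and 2 after etoposide. Library totals alone gave 4 for ESA-Me with Fer-1 against ESA-Me in H2O2-induced cells. With no filter, the counts were 9 for ESA in etoposide-induced cells, 3, 6 and 2 for ESA-Me in uninduced, H2O2-induced and etoposide-induced cells, 11 for ESA-Me with Fer-1 against ESA-Me in H2O2-induced cells and 1 for ESA-Me with Fer-1 against vehicle in etoposide-induced cells. With only the states compared in the fit, they were 4 and 1 for ESA in H2O2- and etoposide-induced cells, 11 and 1 for ESA-Me in uninduced and H2O2-induced cells, 2 for ESA with Fer-1 against ESA in etoposide-induced cells, 5 and 2 for ESA-Me with Fer-1 against ESA-Me in uninduced and etoposide-induced cells, and 0 for the Nupr1 difference. The causes were not tested. Shares over all genes under these settings are not given here, so a count that moved cannot be set against the change over all genes.

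Leaving out 1 replicate set gave 5 to 13, 0 to 5 and 1 to 9 calls for ESA in uninduced, H2O2-induced and etoposide-induced cells, 0 to 0, 0 to 4 and 0 to 6 for ESA-Me, 6 to 11, 0 to 9 and 1 to 16 for ESA with Fer-1 against ESA, and 0 to 0, 1 to 5 and 2 to 6 for ESA-Me with Fer-1 against ESA-Me. Against vehicle, in etoposide-induced cells, it gave 0 to 10 for ESA with Fer-1 and 0 to 7 for ESA-Me with Fer-1. The differences between etoposide-induced and uninduced cells gave 0 to 4 for ESA and 0 to 2 for ESA-Me. The senescence comparisons gave 7 to 10 after H2O2 and 6 to 13 after etoposide. Shares over all genes in the fits that left out a replicate set are not given here. Depth limits Cbs, at up to 29 reads per library.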

Other observations

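The variance of log2 CPM over the 45 libraries was split for each gene into state, replicate number within state, treatment within state and the rest, as a description with no test. Over the 32 genes the median shares were 42.6% for state, 27.4% for replicate number within state, 10.9% for treatment within state and 6.0% for the rest. With the rest set aside, state held the largest share in 17 genes, replicate number in 12 and treatment in 3. In Jdp2, counted under treatment (33.0%), the rest held more (43.0%). Psat1 (90.7%) and Slc7a3 (88.1%), an enzyme of serine synthesis and a cationic amino acid carrier, had the most by state. Atf4 was the opposite, with 5.1% by state and 60.9% by treatment, and Got1 had 38.5% by treatment and 5.6% by state.

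The genes Atf5, Jdp2, Phgdh, Pycr1 and Slc1a4 were called in no comparison. Pycr1, for the last enzyme of proline synthesis, had log2 fold changes of -0.12 ± 0.10, -0.03 ± 0.10 and -0.12 ± 0.10 with ESA in uninduced, H2O2-induced and etoposide-induced cells, and its share by replicate number was 61.0%. Jdp2 had -0.18 ± 0.12, -0.16 ± 0.12 and -0.18 ± 0.12 with ESA, and 0.23 ± 0.12, 0.21 ± 0.12 and 0.17 ± 0.12 when Fer-1 was added. Slc1a4, a carrier of alanine, serine and cysteine, had 0.13 ± 0.09, 0.20 ± 0.09 and 0.26 ± 0.09 with ESA, and 31.1% of its variance by treatment.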
